A study of Rattus norvegicus with 8 samples.

Results

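The collagen genes of the sciatic nerve were followed in PEG-fused peripheral nerve allografts (PNAs), negative control (NC) PNAs and unoperated (Unop) nerves. Members were the genes whose symbol is Col, a number, a and a number, and whose normalized count reached 10 in 2 or more libraries. Of 43 genes with such a symbol, 40 qualified, among 16478 genes that passed the same minimum and 22798 genes with at least 1 read. By collagen type, 11 members were fibrillar (types I, II, III, V, XI, XXIV and XXVII), 8 network-forming (IV and VIII), 5 beaded (VI), 9 fibril-associated (FACIT, types IX, XII, XIV, XVI, XIX, XX and XXII) and 2 transmembrane (XIII and XVII). Another 2 were multiplexins (XV and XVIII), 1 forms anchoring fibrils (VII), and 2 (XXVI and XXVIII) were placed in none of these types. The 3 genes below the minimum were Col10a1, Col23a1 and Col25a1, which reached at most 7.50, 1.25 and 11.1 normalized counts. Of the 40 members, 35 were at or above 10 in every library, and none had passed through the libraries of 1 group alone.

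Animals were female Sprague Dawley (Envigo) rats labelled as 3 to 6 months old. A nerve segment from a donor rat that was not tissue-matched was sutured into an ablated host sciatic nerve without immunosuppression, and was taken 14 days after the operation. Host and graft ends of both graft groups were washed in a hypotonic solution and methylene blue, joined by microsutures and rinsed with calcium-containing saline. The PEG group (3 animals) also received polyethylene glycol, a polymer that fuses cut axonal membranes, at the lesion sites. The NC group (3 animals) did not, and the Unop group (2 animals) had no operation. Each graft held cells of the donor and cells that had entered from the host, and the 8 libraries came from whole tissue, so that fewer cells of a type and less RNA per cell cannot be told apart.

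Collagens are secreted proteins of 3 chains wound into a triple helix, and each gene codes for 1 kind of chain. In peripheral nerve, fibrillar collagens run between the axons and in the outer sheaths, the network collagen IV is a scaffold of the basement membranes around Schwann cells, perineurial cells and vessels, and beaded collagen VI lies between membrane and fibrils. FACIT collagens sit on the surface of fibrils, and transmembrane collagens are held in the cell surface.

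Each library had between 32472925 and 39959620 reads on genes. Levels are normalized counts, that is, reads divided by a size factor per library. They were not divided by transcript length, so that a higher count of 1 gene than of another does not mean more transcripts. Group differences are log2 fold changes of normalized count + 1 with their standard error (SE), and padj is the p-value of limma adjusted by Benjamini-Hochberg over the 16478 genes tested, with a gene called at padj under 0.05. The myelinating Schwann cell transcript Mag had normalized counts of 3956 and 3879 in the Unop nerves, between 11.1 and 61.9 in PEG-fused PNAs, and 336, 28 and 12.5 in NC 1, NC 2 and NC 3. All 7 Schwann cell markers examined were lower than in Unop nerves in both graft groups, beside 28.6% (PEG) and 32.3% (NC) of all tested genes. Between the graft groups, Sox10 (0.83, SE 0.14, limma padj = 0.00394) and S100b (1.42, SE 0.16, limma padj = 0.000897) were higher in PEG-fused PNAs. Of the 7 markers 0 were lower there, beside 15.0% of all tested genes higher and 13.9% lower. NC 1 and NC 3 held far more skeletal muscle transcripts than the remaining libraries, with Acta1 (skeletal muscle actin) at 202480 and 76780 against 1033 to 8945 elsewhere. According to the paper, muscle and connective tissue often adhere to rejected NC PNAs and could not be fully removed before excision. The part of such tissue in the collagen levels was not tested. PEG 2 had the highest value of its group for 22 of the 40 collagen genes.

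Collagen genes took more of the counts in PEG-fused PNAs than they did in NC PNAs, and the smallest share in unoperated nerves. They held 1.91%, 3.05% and 2.18% of all normalized counts in PEG 1, PEG 2 and PEG 3. In NC 1, NC 2 and NC 3 they held 0.979%, 1.15% and 1.56%, and in Unop 1 and Unop 2 0.850% and 0.705%. The 3 groups did not overlap, and PEG 2 lay above the other libraries. These shares, and those by type, cover the members only. They leave out the type VI alpha 3 chain, which carried another kind of symbol, and include uncertain counts of Col1a2 (both given below). Fibrillar genes held between 75.9% and 80.2% of the collagen counts in PEG-fused PNAs, between 76.6% and 80.2% in NC PNAs, and 69.6% and 72.9% in the Unop nerves. Col3a1 alone held 52.6% ± 1.76 (SD, n = 3 PEG-fused PNAs) of the collagen counts, 56.7% ± 1.81 (SD, n = 3 NC PNAs) and 44.4% ± 0.336 (SD, n = 2 Unop nerves). Network genes held 10.8% and 11.6% of the collagen counts in the Unop nerves, against 5.46% to 7.90% in PEG-fused PNAs and 5.97% to 6.67% in NC PNAs. The grafts and the unoperated nerves therefore did not overlap in the network share, whereas both graft groups did overlap with each other.

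**Figure D1:**
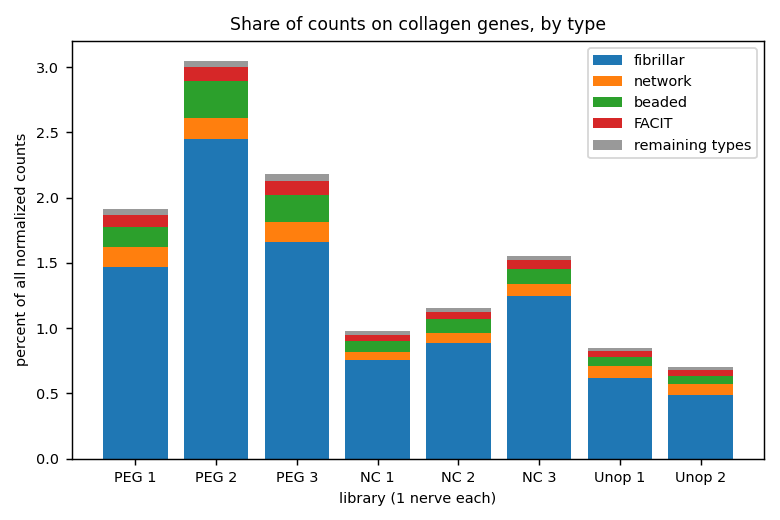
Share of all normalized counts on collagen genes (y axis, percent) in each of the 8 libraries (x axis), stacked by collagen type. The bars reach 1.91% to 3.05% in PEG-fused PNAs, 0.979% to 1.56% in NC PNAs and 0.705% to 0.850% in Unop nerves, and the fibrillar part is the tallest in every bar.

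The first comparison was between PEG-fused and NC PNAs, which differed in the use of polyethylene glycol. Of the 40 collagen genes, 21 (52.5%) were higher in PEG-fused PNAs, where 15.0% of all tested genes were higher. No collagen gene was called lower by limma, where 13.9% of all tested genes were. At an unadjusted p under 0.05, 1 was lower, Col19a1, and edgeR and DESeq2 on the recovered reads each called that gene lower. With a log2 fold change past 1 as well, 13 collagen genes were higher, beside 4.41% of all tested genes. The median log2 fold change was 0.94 over the 40 collagen genes and 0.00 over all tested genes. In 25 collagen genes every PEG-fused PNA lay above every NC PNA, beside 25.6% of all tested genes, and in 1 (Col11a2) every one lay below, beside 23.3%.

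By type, the called genes were 7 of 8 network, 4 of 5 beaded, 6 of 11 fibrillar, 3 of 9 FACIT and 1 of 2 multiplexin genes. Neither of the 2 transmembrane genes, nor the anchoring fibril gene, nor the 2 unplaced genes were called. Without PEG 2 the number of higher genes was 14, and it was also 14 without PEG 3. With NC 1 and NC 3, the libraries rich in muscle transcripts, both left out, it was 13, with NC 2 as the lone NC library and its spread taken from the other groups. In every refit tried (edgeR, DESeq2, other filters, scalings and models, and libraries left out) 9 genes kept the call, namely Col5a2, Col11a1, Col4a1, Col4a4, Col8a1, Col8a2, Col6a6, Col12a1 and Col15a1. With a log2 fold change past 1 required as well, 7 of these remained, since Col4a1 (0.70) and Col15a1 (0.85) lay below it.

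**Figure D2:**
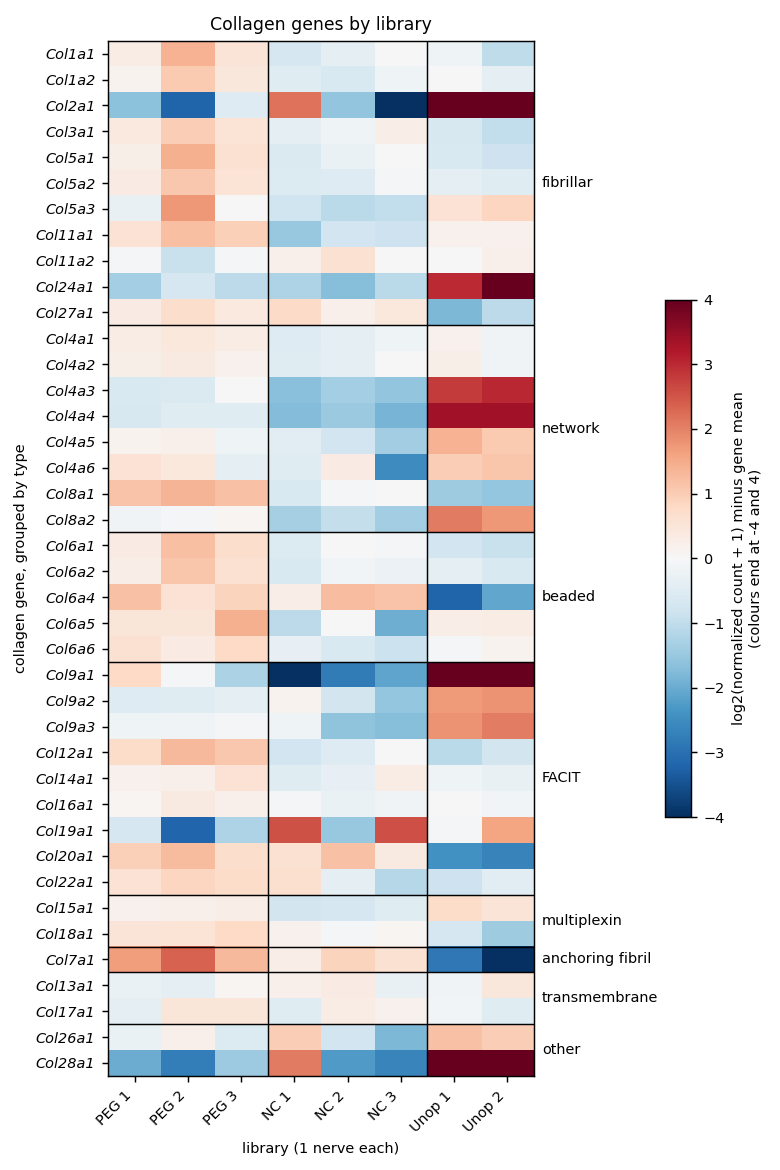
Levels of the 40 collagen genes (rows, grouped by type) in the 8 libraries (columns), as log2(normalized count + 1) minus the mean of the gene over all libraries. Red is above and blue below the mean of the gene, with colours ending at -4 and 4, and most network and beaded genes are redder in the 3 PEG-fused PNAs than in the 3 NC PNAs.

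Among fibrillar genes, chains of types I, V and XI were higher in PEG-fused PNAs, while Col3a1, Col11a2 and the chains of types II, XXIV and XXVII were not called. Col11a1, a chain that regulates the thickness of fibrils, differed most of the called fibrillar genes. It had normalized counts of 2455, 3807 and 3192 in PEG 1, PEG 2 and PEG 3, and of 575, 967 and 933 in NC 1, NC 2 and NC 3. The Unop nerves, at 1873 and 1849, lay between both graft groups without overlap. The log2 fold change between graft groups was 1.95 (SE 0.22, limma padj = 0.000986). Col5a1, a chain of the type V collagen that starts fibrils, was counted at 7885, 17804 and 10158 in PEG-fused PNAs, at 4499, 5549 and 6631 in NC PNAs, and at 4395 and 3783 in Unop nerves. PEG 2 was the highest and no PEG-fused PNA overlapped with an NC PNA (log2 fold change 1.04, SE 0.28, limma padj = 0.0258). That call was lost without PEG 3, NC 1 or NC 2. Col5a2 was higher by 1.04 (SE 0.21, limma padj = 0.0079). Col11a2 went the other way without passing, at 121, 67.3 and 120 in PEG-fused PNAs against 147, 194 and 127 in NC PNAs (-0.62, SE 0.27, limma padj = 0.123).

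Type I collagen, the main fibre-former of connective tissue, is made from the Col1a1 and Col1a2 chains. Col1a1 had normalized counts of 95857, 205392 and 110974 in PEG-fused PNAs, of 49258, 60757 and 79783 in NC PNAs, and of 70005 and 38904 in Unop nerves. All 3 PEG-fused PNAs exceeded all 3 NC PNAs, and PEG 2 was highest by far. The log2 fold change of 1.06 (SE 0.35) had a limma padj of 0.0499, at the threshold, and without PEG 2 it was 0.73 (limma padj = 0.145). The call was also lost without PEG 3, NC 1, NC 2, NC 3 or Unop 2. Col1a2 was counted at 308, 588 and 388 in PEG-fused PNAs, 200, 185 and 247 in NC PNAs, and 280 and 218 in Unop nerves (PEG against NC, log2 fold change 0.98, SE 0.25, limma padj = 0.02). Without PEG 2 or PEG 3, or without NC 2, Col1a2 was not called. Counts of Col1a1 were 179 to 349 times those of Col1a2 across the libraries. A second Ensembl gene described as the same alpha 2 chain held 2 reads in PEG 1 and 0 in the remaining libraries, so the low counts of Col1a2 are uncertain and their cause was not tested.

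Col3a1, the chain of the fine reticular fibres of type III, had the most reads of any collagen gene. Its normalized counts were 333577, 501780 and 366705 in PEG-fused PNAs, 193225, 223598 and 303060 in NC PNAs, and 162510 and 126373 in Unop nerves. The groups did not overlap, yet the difference of 0.74 (SE 0.28) between PEG and NC did not pass in limma (padj = 0.0836), while it did by edgeR and by DESeq2. The size of the Col5a3 difference was set by 1 library. Col5a3 stood at 4532, 18782 and 5571 in PEG 1, PEG 2 and PEG 3, against 3188, 2652 and 2828 in NC PNAs and 8368 and 10096 in Unop nerves. Its log2 fold change of 1.44 (SE 0.46, limma padj = 0.0466) was 0.80 without PEG 2 (limma padj = 0.0111), and the call was lost without PEG 3, any NC library or either Unop nerve. Markers of fibroblasts, which make most fibrillar collagen, were summed at 174532 to 199754 in PEG-fused PNAs, 110068 to 152695 in NC PNAs and 215700 to 281211 in Unop nerves. Much of the Unop sums was Dcn, at 221810 and 174085, against 77802 to 88690 in PEG-fused PNAs and 58013 to 68611 in NC PNAs. Against Unop nerves, 3 markers were higher and 1 (Dcn) lower in PEG-fused PNAs, beside 29.1% and 28.6% of all tested genes. In NC PNAs 2 were higher and 2 lower, beside 32.2% and 32.3%. Of the 7 fibroblast markers, 2 (Pdgfra and Thy1) were higher and 0 lower in PEG-fused than in NC PNAs, beside 15.0% and 13.9% of all tested genes. The part of fibroblasts in the fibrillar differences was not tested.

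**Figure D3:**
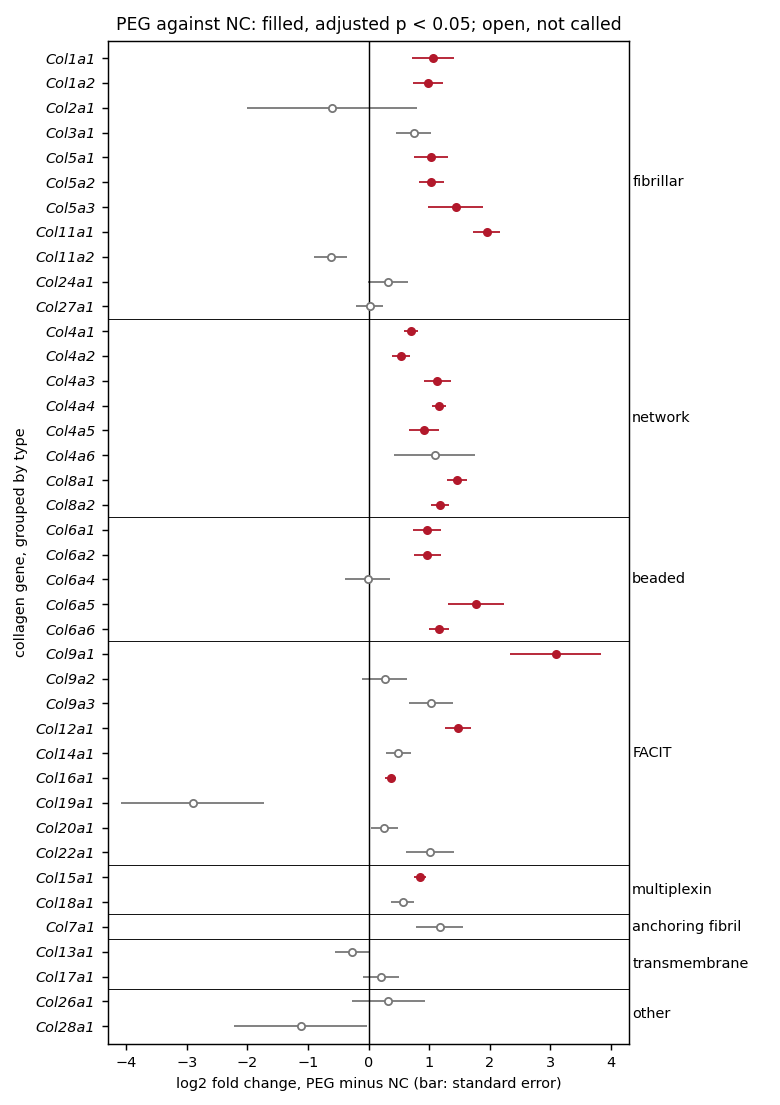
Log2 fold change between PEG-fused and NC PNAs (x axis, with its standard error as a bar) for the 40 collagen genes, grouped by type (y axis). The 21 filled red points have a limma padj under 0.05 and all lie right of 0, and the open grey points were not called.

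Network genes lay on 1 side, with log2 fold changes between 0.53 and 1.46 for the 8 genes, all above 0. The 6 type IV chains lie as 3 pairs of neighbouring genes that are read in opposite directions from a common stretch, Col4a1 with Col4a2, Col4a3 with Col4a4, and Col4a5 with Col4a6. In the RefSeq promoter windows of the rat assembly GRCr8, 76, 412 and 1414 bases lie between the starts of these pairs. Of all genes with a window, 11.6% have such a divergent partner within 2000 bases. The sequences that follow are shown because both chains of a pair start from this space, and the values of a pair are given side by side thereafter. They comprise the whole stretch between Col4a2 and Col4a1 (chr16:84885521-84885596, plus strand), the 250 bases upstream of Col4a3 (chr9:91323740-91323989, plus strand) and the 250 bases upstream of Col4a4 (chr9:91323578-91323827, minus strand). The last 2 overlap in part. Capitals mark the letters GGGCGG (the core of a GC box) or their reverse complement. Reads had been aligned to another build, Rnor 6.0, and no coordinate was carried over.
Col4a2 to Col4a1: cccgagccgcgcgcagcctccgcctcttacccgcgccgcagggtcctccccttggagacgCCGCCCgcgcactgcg
Col4a3: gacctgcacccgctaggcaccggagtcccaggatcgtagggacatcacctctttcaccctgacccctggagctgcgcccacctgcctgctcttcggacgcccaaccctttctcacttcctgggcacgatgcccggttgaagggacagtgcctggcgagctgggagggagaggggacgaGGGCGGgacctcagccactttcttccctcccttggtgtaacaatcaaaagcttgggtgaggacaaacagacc
Col4a4: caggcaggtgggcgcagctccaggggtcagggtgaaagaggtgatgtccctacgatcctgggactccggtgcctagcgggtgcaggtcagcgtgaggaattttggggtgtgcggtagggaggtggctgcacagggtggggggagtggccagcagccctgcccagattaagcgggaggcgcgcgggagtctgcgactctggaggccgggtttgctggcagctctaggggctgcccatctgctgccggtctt

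Windows of 300 bases, 250 before and 50 after the start, were given for 32 of the 40 collagen genes and were searched on both strands. GGGCGG was found in 18 of the 32, beside 34.9% of the 27457 windows of all genes. CCAAT was found in 10, beside 37.7%, and TATAAA in 3 (Col1a2, Col13a1 and Col17a1), beside 14.3%. Matches of GGGCGG and of the reverse complement of CCAAT can share bases where they adjoin. A match is a run of letters and not a site of binding.

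The pair Col4a1 and Col4a2 codes for the chains of the common basement membrane, and both were moderately higher in PEG-fused PNAs. Col4a1 had normalized counts of 20977, 22696 and 20930 in PEG-fused PNAs, of 11898, 12947 and 15060 in NC PNAs, and of 18916 and 15473 in Unop nerves (PEG against NC, log2 fold change 0.70, SE 0.12, limma padj = 0.0046). Col4a2 followed, at 8398, 9114 and 7939, then 5090, 5603 and 7050, and 8361 and 6441 (log2 fold change 0.53, SE 0.15, limma padj = 0.0274), but its call was lost without any 1 of the 3 PEG libraries, NC 1 or NC 2. The ratio of Col4a1 to Col4a2 counts kept between 2.14 and 2.64 in all 8 libraries. It was higher in every PEG-fused PNA than in any NC PNA, which in an exact two-sided permutation test gave p = 0.1, the smallest that 3 against 3 allow, and 0.35 after adjustment over the 7 ratios examined.

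Col4a3 and Col4a4 code for chains of a more restricted network, best known from the filter membrane of the kidney. Col4a4 stood at 335, 366 and 369 in PEG-fused PNAs, at 154, 184 and 141 in NC PNAs, and at 5344 and 5336 in Unop nerves. Replicates lay close together and the 3 groups were far apart, with PEG above NC by a log2 fold change of 1.16 (SE 0.12, limma padj = 0.000764). Col4a3 had 53.8, 54.2 and 80.7 normalized counts in PEG-fused PNAs, 25, 31.2 and 27 in NC PNAs, and 574 and 670 in Unop nerves (PEG against NC 1.13, SE 0.22, limma padj = 0.00759, and 0.0783 with NC 1 and NC 3 both left out). Col4a4 counts were 4.57 to 6.76 times those of Col4a3 in the grafts, and 9.31 and 7.96 times in Unop 1 and Unop 2. Col4a5, the partner of these chains, was counted at 365, 380 and 296, then 246, 195 and 126, and 875 and 695 in Unop nerves (PEG against NC 0.92, SE 0.24, limma padj = 0.0239). The call for Col4a5 was lost without PEG 1 or PEG 2. Col4a6 had between 15.9 and 32.4 normalized counts in PEG-fused PNAs, 15.2, 26.9 and 2.89 in NC PNAs, and 42.9 and 47.5 in Unop nerves, and was not called (limma padj = 0.255).

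Type VIII collagen is a short-chain network former of vessel walls and of the corneal membrane. Col8a1 had normalized counts of 17933, 20825 and 18568 in PEG-fused PNAs, of 5309, 7703 and 8188 in NC PNAs, and of 3044 and 2820 in Unop nerves. It was the 1 collagen gene for which PEG was above NC, PEG above Unop and NC above Unop, each by limma, with 1.46 (SE 0.16, padj = 0.000897) between PEG and NC. Its partner Col8a2 was counted at 454, 488 and 526, then 201, 259 and 191, and 2136 and 1666 in Unop nerves. Col8a2 was likewise higher in PEG-fused than in NC PNAs (log2 fold change 1.18, SE 0.15, limma padj = 0.00151), but both graft groups lay below the unoperated nerves. Counts of Col8a1 were 26.4 to 42.9 times those of Col8a2 in the 6 grafts, and 1.43 and 1.69 times in the Unop nerves. Markers of vessels were examined beside these network genes. The 4 endothelial markers in the table summed to 7118 to 9641 in PEG-fused PNAs, 6740 to 8787 in NC PNAs, and 11539 and 11782 in Unop nerves, with Cldn5 at 0 in every library, and of the 3 tested 0 were higher and 1 lower (Kdr) between PEG and NC. Of 7 mural cell and myofibroblast markers, 4 were higher (Rgs5, Pdgfrb, Cspg4 and Acta2) and 1 lower (Des) between PEG and NC. Of all tested genes, 15.0% were higher and 13.9% lower. The 7 markers summed to 23897 to 29208 in PEG-fused PNAs, 20207 to 45433 in NC PNAs, and 48876 and 57247 in Unop nerves. Much of the NC sums was Des, at 33528, 7450 and 21082 in NC 1, NC 2 and NC 3, against 3469 to 4680 in PEG-fused PNAs. Its highest values were in NC 1 and NC 3, the libraries rich in muscle transcripts, so the sums do not show the direction of the 4 higher markers. The part of the vessel markers in the network differences was not tested.

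Type VI collagen forms beaded microfibrils from alpha 1, alpha 2 and a longer alpha 3 chain. Col6a1 had normalized counts of 27443, 50223 and 35544 in PEG-fused PNAs, of 14834, 21880 and 20332 in NC PNAs, and of 12753 and 11654 in Unop nerves, in 3 groups without overlap. Between PEG and NC the log2 fold change of Col6a1 was 0.96 (SE 0.23, limma padj = 0.0161) and that of Col6a2 0.97 (SE 0.22, limma padj = 0.0135). With NC 1 and NC 3 both left out, neither was called (limma padj = 0.145 and 0.135). Counts of Col6a1 were 1.25 to 1.33 times those of Col6a2 in the 6 grafts and 0.914 and 0.993 times in the Unop nerves. Col6a5, 1 of the alternatives to the alpha 3 chain, was at 658, 663 and 1285 in PEG-fused PNAs, 231, 485 and 123 in NC PNAs, and 576 and 580 in Unop nerves (PEG against NC 1.78, SE 0.46, limma padj = 0.0232). This call was lost without PEG 2 or PEG 3. Another alternative chain, Col6a6, was higher by 1.17 (SE 0.17, limma padj = 0.00231), while the log2 fold change of Col6a4 was -0.01 (SE 0.37). The alpha 3 chain itself was listed under a clone name and so fell outside the choice of members. Described as the collagen type VI alpha 3 chain, this gene had normalized counts of 28307, 58602 and 34957 in PEG-fused PNAs, 14094, 16820 and 19602 in NC PNAs, and 5550 and 4549 in Unop nerves. It too was higher in PEG-fused PNAs, by a log2 fold change of 1.21 (SE 0.26, limma padj = 0.00992).

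FACIT genes were mixed. Col12a1, whose protein coats type I fibrils, was counted at 9830, 14729 and 12607 in PEG-fused PNAs, at 3465, 4158 and 5828 in NC PNAs, and at 2847 and 3606 in Unop nerves. The PEG group stood apart from both others, with 1.48 over NC (SE 0.21, limma padj = 0.00224). Col14a1, the FACIT gene with the most reads, had 12223, 12380 and 16050 normalized counts in PEG-fused PNAs, 7676, 8611 and 13198 in NC PNAs, and 9600 and 8753 in Unop nerves, and was not called in any of the 3 comparisons. Col9a1, a chain of the cartilage FACIT of type IX, had the largest fold change of the called genes (3.09, SE 0.75, limma padj = 0.0174) on few reads. Its normalized counts were 50.1, 27.1 and 11.3 in PEG-fused PNAs, 0, 3.23 and 5.79 in NC PNAs, and 948 and 1169 in Unop nerves. Without PEG 1 or PEG 2 this call was lost. Col16a1 was higher by 0.37 (SE 0.09, limma padj = 0.0217), the smallest of the called differences, and was not called without PEG 2, PEG 3, NC 2 or NC 3. Col19a1, the gene that edgeR and DESeq2 called lower, was counted at 4.63, 0 and 2.81 in PEG-fused PNAs and at 51.8, 2.15 and 53.1 in NC PNAs. Its 2 high values were in NC 1 and NC 3, the libraries with the muscle transcripts, whose part in this value was not tested.

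Of the remaining types, the multiplexin Col15a1, which links basement membranes to the fibres around them, was called. It had normalized counts of 2527, 2599 and 2670 in PEG-fused PNAs, of 1349, 1392 and 1595 in NC PNAs, and of 3750 and 3181 in Unop nerves, in 3 groups without overlap (PEG against NC 0.85, SE 0.10, limma padj = 0.00098). Col18a1, the source of the fragment endostatin, stood at 11726, 12032 and 14308, then 9282, 7838 and 8616, and 5133 and 3042 in Unop nerves, and did not pass between the graft groups (0.56, SE 0.18, limma padj = 0.0514). DESeq2 called Col18a1 higher in PEG-fused PNAs, whereas edgeR did not, and the call was also made with TMM scaling or a stricter filter. Col7a1, known from the anchoring fibrils of skin, was at 1114, 1780 and 851 in PEG-fused PNAs and at 419, 653 and 532 in NC PNAs, a difference of 1.18 (SE 0.39) that missed the threshold in limma (padj = 0.0526) and passed in edgeR and DESeq2. Col17a1, the transmembrane gene with the most reads, lay between 100 and 180 in PEG-fused PNAs, between 92.0 and 159 in NC PNAs, and at 119 and 91.3 in Unop nerves. A gene described as the transmembrane collagen alpha-1(XXIII) chain, which carries another kind of symbol and was therefore no member, had at most 28.6 normalized counts in the grafts and 1006 and 1293 in Unop nerves (PEG against Unop -6.76, SE 0.66, limma padj = 5.74e-05).

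**Figure D4:**
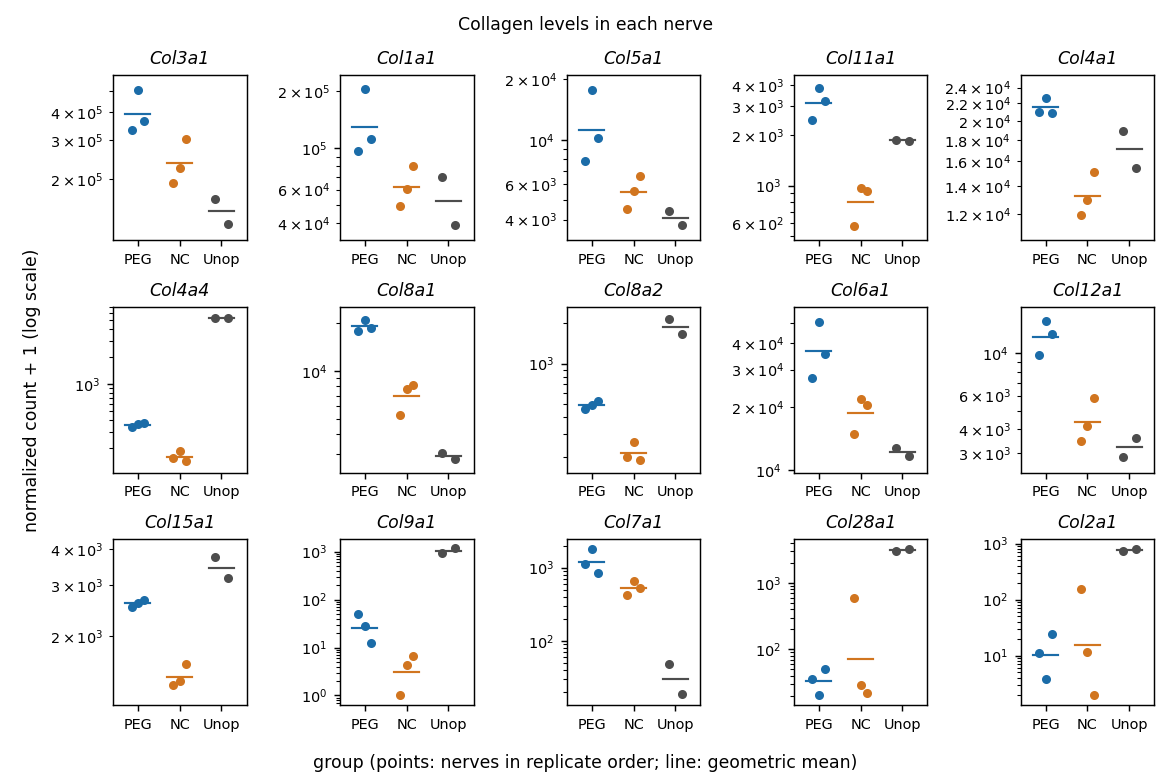
Normalized count + 1 (y axis, log scale, a separate range in each panel) of 15 collagen genes in each nerve, by group (x axis), with a line at the geometric mean. PEG-fused PNAs lie above NC PNAs without overlap in 13 of the panels, the exceptions being Col28a1 and Col2a1. The panels are chosen genes, and such a separation held for 25 of the 40 collagen genes and 25.6% of all tested genes. The Unop nerves lie far above both graft groups for Col4a4, Col9a1, Col28a1 and Col2a1.

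The second question was how each graft group differed from unoperated nerve. Both comparisons use the same 2 Unop nerves and so share their error. In PEG-fused PNAs, 17 of the 40 collagen genes were higher than in Unop nerves, where 29.1% of all tested genes were, and 11 were lower, where 28.6% were. In NC PNAs, 6 collagen genes were higher, where 32.2% of all tested genes were, and 16 were lower, where 32.3% were. The median log2 fold change over collagen genes was 0.41 for PEG against Unop and -0.17 for NC against Unop. By type, 7 fibrillar genes were higher and 2 lower in PEG-fused PNAs, against 1 higher and 4 lower in NC PNAs. Of the network genes 1 was higher and 4 lower in PEG-fused PNAs, and 1 was higher and 6 lower in NC PNAs. Of the beaded genes 4 were higher and 0 lower in PEG-fused PNAs, against 1 and 1 in NC PNAs. For FACIT genes the numbers were 3 and 3 against 1 and 3. Without Unop 1 or Unop 2, 22 collagen genes were called in either direction for PEG-fused PNAs and 18 for NC PNAs, in place of 28 and 22. Calls lost with 1 library left out were those of Col1a1, Col1a2, Col2a1, Col4a5, Col6a6, Col11a1, Col15a1 and Col22a1 for PEG-fused PNAs, and of Col2a1, Col4a1, Col4a6, Col5a3 and Col6a6 for NC PNAs.

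Put together with the comparison between the graft groups, the calls sorted the genes into a few patterns. In 7 genes (Col1a1, Col1a2, Col5a1, Col5a2, Col6a1, Col6a2 and Col12a1), PEG was above both NC and Unop while NC was not called against Unop. In 6 genes (Col4a3, Col4a4, Col4a5, Col8a2, Col9a1 and Col15a1), both grafts were below Unop and PEG was above NC. Col11a1 and Col6a6 were above Unop in PEG-fused PNAs and below it in NC PNAs. Another 5 genes (Col6a4, Col7a1, Col18a1, Col20a1 and Col27a1) were above Unop in both grafts, and 5 (Col2a1, Col9a2, Col9a3, Col24a1 and Col28a1) below it in both, without a call between PEG and NC. In 6 genes (Col11a2, Col13a1, Col14a1, Col17a1, Col19a1 and Col26a1) no comparison was called.

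Genes above Unop in both graft groups were led by Col7a1, which had 47.2 and 17.5 normalized counts in the Unop nerves. Its log2 fold change was 5.32 (SE 0.43, limma padj = 2.2e-05) in PEG-fused PNAs and 4.14 (SE 0.43, limma padj = 6e-05) in NC PNAs. Col6a4 was counted at 174, 115 and 144 in PEG-fused PNAs, at 93.8, 185 and 171 in NC PNAs, and at 7.51 and 17.5 in Unop nerves, a rise of 3.52 (SE 0.42) and 3.53 (SE 0.42). Col20a1 rose by 3.53 (SE 0.25) and 3.27 (SE 0.25), from 90.1 and 76.3 in Unop nerves to between 635 and 1189 in the grafts. Col8a1 rose by 2.70 (SE 0.18) in PEG-fused PNAs and by 1.24 (SE 0.18) in NC PNAs. Col27a1, a fibrillar chain of cartilage, rose by 1.89 (SE 0.25) and 1.87 (SE 0.25), and Col18a1 by 1.68 (SE 0.21) and 1.11 (SE 0.21).

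**Figure D5:**
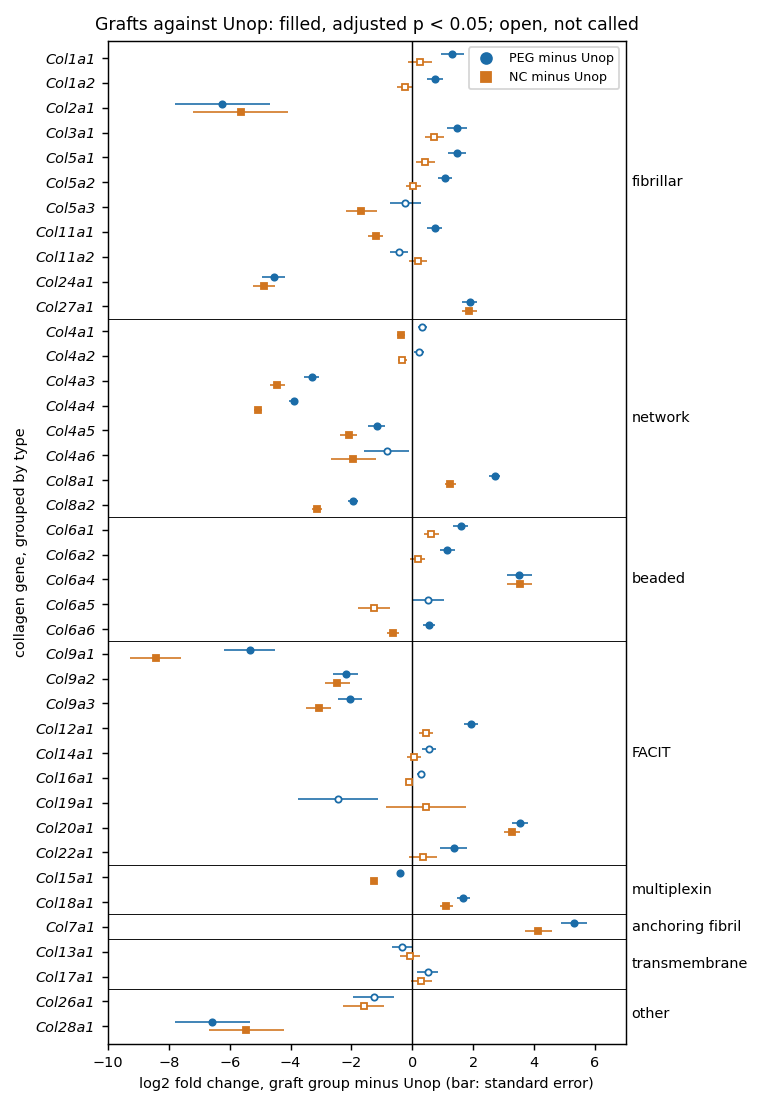
Log2 fold change against Unop nerves (x axis, with its standard error as a bar) of PEG-fused PNAs (blue circles) and NC PNAs (orange squares) for the 40 collagen genes, grouped by type (y axis). Filled symbols have a limma padj under 0.05, and both groups are measured against the same 2 nerves, with Col7a1 farthest to the right and Col9a1 in NC PNAs farthest to the left.

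Genes below Unop in both graft groups included type IV chains and several chains best known from cartilage. Col4a4 was lower by a log2 fold change of -3.90 (SE 0.14, limma padj = 9.16e-07) in PEG-fused PNAs and of -5.07 (SE 0.14, limma padj = 3.75e-07) in NC PNAs. Col4a3, its head-to-head neighbour, was lower by -3.31 (SE 0.25) and -4.44 (SE 0.25), whereas Col4a1 and Col4a2 were not called in PEG-fused PNAs (0.33 and 0.21). In NC PNAs Col4a1 was called lower (-0.37, SE 0.14, limma padj = 0.0408), and Col4a2 was not (-0.33, SE 0.16). Counts of Col4a1 were 56.8 to 107 times those of Col4a4 in the 6 grafts, and 3.54 and 2.90 times in the Unop nerves. Col9a1 was lower by -5.34 (SE 0.84) and -8.43 (SE 0.84). Col24a1, a fibrillar chain of developing bone, stood at 982 and 2099 in Unop nerves and between 36.6 and 76.7 in the grafts, a log2 fold change of -4.56 (SE 0.36) and -4.89 (SE 0.36).

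Col28a1, which is known from the basement membranes around Schwann cells, was counted at 3074 and 3251 in Unop nerves, at 34.3, 19.6 and 49.7 in PEG-fused PNAs, and at 588, 28 and 21.2 in NC 1, NC 2 and NC 3. NC 1 stood apart from the other grafts, and it was also the graft with the most Mag, 336. The log2 fold changes were -6.57 (SE 1.22, limma padj = 0.002) and -5.45 (SE 1.22, limma padj = 0.00445). DESeq2 gave no p-value for this gene, and its log2 fold changes were -6.52 and -3.90. Col2a1, the main collagen of cartilage, stood at 721 and 809 in Unop nerves, at 10.2, 2.80 and 23.5 in PEG-fused PNAs, and at 155, 10.8 and 0.965 in NC PNAs. Here too NC 1 was the highest graft, and the log2 fold changes were -6.24 (SE 1.57, limma padj = 0.00891) and -5.64 (SE 1.57, limma padj = 0.0126). DESeq2 gave no p-value here either, with log2 fold changes of -5.98 and -3.78. Without Unop 1 or Unop 2, the Col2a1 call was lost for both graft groups.

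Marker lists of other cell types were compared in the same libraries. The cartilage markers summed to 16044 and 20013 normalized counts in the Unop nerves, of which Cnmd (chondromodulin) made up 15215 and 19211, against 435 to 674 in PEG-fused PNAs and 260 to 318 in NC PNAs. The other 7 markers in the Unop nerves were Sox9 at 444 and 410, Comp at 231 and 305, Hapln1 at 103 and 61.3, Matn3 at 34.3 and 21.3, Snorc at 10.7 and 2.50, Acan at 6.44 and 1.25, and Matn1 at 0 in both. Of the 7 cartilage markers tested, Cnmd, Sox9 and Hapln1 were lower than in Unop nerves in both graft groups and Comp was called lower in NC PNAs, whereas Acan was higher in both graft groups. Against Unop nerves, 29.1% of all tested genes were higher and 28.6% lower in PEG-fused PNAs, and 32.2% higher and 32.3% lower in NC PNAs. The perineurial markers tested were Cldn1 and Slc2a1, and both were lower than in Unop nerves in both graft groups. All 4 adipocyte markers were also lower in both graft groups. They summed to 28768 to 53066 in Unop nerves, 273 to 364 in PEG-fused PNAs and 512 to 1367 in NC PNAs. Of 3 osteoblast markers tested against Unop nerves, 0 were called in PEG-fused PNAs and 1 (Bglap) was lower in NC PNAs. The part of these lists in the collagen differences was not tested, and nor was that of the Schwann cell markers.

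Collagen chains are modified and folded in the endoplasmic reticulum, exported, trimmed of their propeptides, cross-linked, and later cleared or bound by receptors. Lists of 58 genes for these steps held 54 that were tested. Of these, 29 were higher and 2 lower in PEG-fused than in NC PNAs, read beside 15.0% and 13.9% of all tested genes. Against Unop nerves, 35 were higher and 6 lower in PEG-fused PNAs, beside 29.1% and 28.6% of all tested genes, and 21 were higher and 12 lower in NC PNAs, beside 32.2% and 32.3%.

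Among genes of folding and modification, 12 of 19 were higher and 0 lower in PEG-fused than in NC PNAs, beside 15.0% and 13.9% of all tested genes. Serpinh1, the chaperone HSP47 of the triple helix, had normalized counts of 27178, 37736 and 29035 in PEG-fused PNAs, 16640.0, 14155 and 16808 in NC PNAs, and 20146 and 19358 in Unop nerves (PEG against NC 0.97, SE 0.14, limma padj = 0.00229). Creb3l1, a transcription factor that drives collagen secretion, was higher by 0.89 (SE 0.14, limma padj = 0.00273), and Fkbp14, a prolyl isomerase, by 0.82 (SE 0.13, limma padj = 0.00315). Of 3 secretion genes tested, 2 were higher, Sec23a (0.76, SE 0.14, limma padj = 0.00542) and Sec24d (0.60, SE 0.12, limma padj = 0.00828), both of the coat of export vesicles. The remaining gene, Mia2, was not called (-0.24, SE 0.11, limma padj = 0.125). For propeptide processing 4 of 8 were higher, with Bmp1, the C-proteinase, at 0.93 (SE 0.19, limma padj = 0.00969), its enhancer Pcolce2 at 1.54 (SE 0.33, limma padj = 0.0106) and the N-proteinase Adamts2 at 0.66 (SE 0.17, limma padj = 0.0218).

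In PEG-fused PNAs, all 5 cross-linking enzymes were higher than in Unop nerves, beside 29.1% of all tested genes. Of these 5, 3 were higher than in NC PNAs, beside 15.0% of all tested genes. Lox, the enzyme that starts the cross-links, had normalized counts of 6712, 11248 and 8574 in PEG-fused PNAs, 2478, 4061 and 5107 in NC PNAs, and 3031 and 2404 in Unop nerves (PEG against NC 1.22, SE 0.28, limma padj = 0.0136). Loxl3 was higher by 0.56 (SE 0.12, limma padj = 0.00967) and Loxl2 by 1.57 (SE 0.38, limma padj = 0.0169). Breakdown and uptake genes were higher than in Unop nerves for 8 of 8 in PEG-fused PNAs and 7 of 8 in NC PNAs, beside 29.1% and 32.2% of all tested genes. Between the graft groups 2 of the 8 were called higher in PEG-fused PNAs, beside 15.0% of all tested genes. They were the fibroblast protease Fap (1.34, SE 0.19, limma padj = 0.00197) and the gelatinase Mmp2 (0.71, SE 0.17, limma padj = 0.0146). The collagenase Mmp8 did not pass (1.86, SE 0.62, limma padj = 0.0546).

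Of 11 tested receptors that bind collagen, 6 were higher and 2 lower in PEG-fused than in NC PNAs, beside 15.0% and 13.9% of all tested genes. Ddr1, a receptor tyrosine kinase for collagen, was higher by 0.84 (SE 0.09, limma padj = 0.000979), Adgrg1, an adhesion receptor of type III collagen, by 0.50 (SE 0.08, limma padj = 0.00375), and the integrin chain Itgb1 by 0.51 (SE 0.12, limma padj = 0.0185). Both lower genes are receptors of immune and myeloid cells. Lair1 had 11.1, 1.87 and 23.5 normalized counts in PEG-fused PNAs and 38.4, 53.8 and 44.4 in NC PNAs (-2.28, limma padj = 0.043). Oscar stood at 311, 252 and 137 against 310.1, 1159 and 666 (-1.49, limma padj = 0.047), so that PEG 1 overlapped with NC 1. With any 1 library left out, at most 1 of these 2 lower calls was made. The macrophage and T cell markers examined were lower in PEG-fused than in NC PNAs for 4 of 5 and 5 of 5 genes, beside 13.9% of all tested genes. The part of these cells in the receptor values was not tested.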

How the data were processed

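RNA of 8 nerves (3 PEG-fused PNAs, 3 NC PNAs, 2 unoperated), 1 per animal, was sequenced by the authors as stranded mRNA libraries. Per the labels and methods, reads were aligned to Rnor 6.0 with TopHat2, counted per gene with HTSeq and scaled by DESeq2 with its median-of-ratios method, so the deposited signal values are normalized counts. The authors' fold changes and p-values for each comparison were also deposited and were not used.

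Division by a constant per library gave whole reads for 100% of the values within 0.001, with size factors of 0.800 to 1.12. Genes whose normalized count reached 10 in 2 or more libraries were fitted with limma 3.58.1 (trend, group means, all 8 libraries) on log2(normalized count + 1), a scale that understates changes of low counts, and p-values were adjusted by Benjamini-Hochberg over 16478 genes. Library sizes ranged from 32472925 to 39959620 reads on genes, and intervals beyond the replicate spread were not computed. Alternatives were edgeR 4.0.16 and DESeq2 1.42.0 on the recovered reads, other filters, a pseudocount of 8, TMM scaling, pairs of groups alone, a robust fit, a replicate block, a fold threshold and each library left out. Leaving out NC 1 and NC 3 together was chosen after seeing the data. The limma script was tested on simulated data.

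The members and all gene lists were chosen with earlier results of these data known. Types follow the collagen number. Per-library values are given for the gene of each type with the most reads, the gene of each type with the largest called change in each comparison, the paired type IV chains, and Col1a1, Col1a2, Col4a4, Col5a1 and Col8a1, which the study names. Those of Col5a3, Col8a2, Col12a1, Col19a1, Col11a2, Col20a1, Col24a1 and the 2 genes outside the choice of members, and of Lair1 and Oscar, were added after values were seen. Other list genes named are the 3 with the smallest padj of their list between PEG and NC. Promoter windows are from RefSeq (GRCr8).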

Additional observations from a re-analysis of the deposited data

How the results depend on the processing

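The 40 collagen genes were refitted under every alternative in each comparison. No called gene changed direction. Of 21 genes called between PEG and NC, 12 kept the call with each single library left out, 9 of them in every refit, and 7 of those 9 also had a log2 fold change past 1. Of 28 called between PEG and Unop, 20 kept the call with each library left out and in every refit that gave a p-value, and of 22 between NC and Unop 17 did. DESeq2 gave no p-value for Col2a1 and Col28a1. With 1 library left out in turn, 14 to 22 collagen genes were higher and 0 to 1 lower in PEG than in NC. With a log2 fold change past 1, 13 were higher, and 13 without NC 1 and NC 3 together. edgeR and DESeq2 each called 1 lower, Col19a1. Of the genes for collagen folding, processing, cross-linking, breakdown and binding, 8 were higher in PEG than in NC with a log2 fold change past 1, 20 were higher in PEG than in Unop and 7 lower in NC than in Unop. The 2 that were lower between PEG and NC became 0 with no filter, in a fit of 2 groups alone and with the replicate block, 1 with the stricter filter of 50 counts, in the robust fit and without NC 1 and NC 3, and 0 to 1 with a library left out. With Col3a1 left out, collagen genes held 1.14%, 0.529% and 0.432% of the counts in PEG, NC and Unop, fibrillar genes 52.6%, 49.2% and 48.3% of the collagen counts, and network genes 14.4%, 14.8% and 20.1%. TMM scaling moved the median of all genes by at most 0.0144 (log2). The causes were not tested.

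Genes not called in a comparison that changed sign there are given as log2 fold changes. Between PEG and NC, with a library left out, Col9a2 ranged from -0.14 to 0.69, Col6a4 from -0.32 to 0.17, Col2a1 from -2.08 to 1.08, Col27a1 from -0.11 to 0.16, Col26a1 from -0.31 to 1.08, Col28a1 from -1.97 to 0.39 and Col17a1 from -0.034 to 0.48. Col6a4 was 0.0010 with TMM scaling, and Col26a1 -0.088 by edgeR and -0.093 by DESeq2. Without NC 1 and NC 3, Col20a1 was -0.19, Col4a6 -0.12, Col28a1 0.20 and Col17a1 -0.11. Between PEG and Unop, Col5a3 was 0.078 by edgeR, 0.060 by DESeq2 and -0.87 to 0.15 with a library left out. Between NC and Unop, with a library left out, Col14a1 ranged from -0.17 to 0.22, Col19a1 from -0.39 to 1.81, Col22a1 from -0.12 to 0.78, Col1a1 from -0.17 to 0.67, Col5a2 from -0.11 to 0.12 and Col13a1 from -0.38 to 0.23. Without NC 1 and NC 3, Col14a1 was -0.090, Col19a1 -2.27, Col5a2 -0.091 and Col13a1 0.18.

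Same-numbered PEG and NC libraries correlated in their deviations from the group means at 0.108, 0.109 and -0.050, and PEG 3 did not correlate best with NC 3. PEG 1 with NC 2 and PEG 2 with NC 1 were at -0.159 and -0.092. Unop 1 and Unop 2 correlated with the same-numbered PEG libraries at 0.154 and 0.136, and with those of NC at 0.152 and 0.157. The deviations of the 2 Unop nerves from their mean are mirror images. Any library therefore correlates with Unop 1 and Unop 2 at equal size and opposite sign. The main fit did not pair the animals by number, and a factor shared by libraries 1 or by libraries 2 was not tested. With the replicate number as a block, 19 collagen genes were called between PEG and NC and 25 between PEG and Unop. Between PEG and NC, the calls of Col1a1, Col4a2, Col5a3 and Col16a1 were lost and those of Col14a1 and Col18a1 gained. Col14a1, Col19a1 and Col5a2 were at -0.12, -0.0092 and -0.013 between NC and Unop with this block. Shares per coding length were not run, since no lengths were at hand.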
